A study of Arabidopsis thaliana with 14 samples.

Results

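The 12 hours between the 12 h and 24 h samplings of an iron deficiency time course in Arabidopsis thaliana roots were examined by setting the 2 arrays of 24 h against the 2 arrays of 12 h, 4 of the 14 arrays of the series. Both groups were whole seedling roots of the Columbia ecotype, grown for 5 days on standard medium with Fe(III)-EDTA and sucrose after which they were transferred to iron-free medium containing 0.3 mM Ferrozine, a chelator of ferrous iron. The 24 h group spent 24 h on that medium and the 12 h group spent 12 h. Each array measured RNA pooled from about 320 roots of one biological replicate, cut just below the root and hypocotyl junction. The other groups were 3, 6, 48 and 72 h without iron and a group moved to fresh standard medium for 3 h. Transfers were staggered so that, by the labels, all harvests fell within 3 h of each other on the sixth day. Roots of the 24 h group were therefore moved earlier than those of the 12 h group, and there was no transfer to fresh standard medium for 12 or 24 h. The labels also give 5 days of growth before transfer for both groups, so the seedling ages at transfer and at harvest are not settled. Time without iron, time since transfer and any difference in seedling age cannot be told apart here.

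Roots of Arabidopsis take up iron by acidifying the soil, reducing ferric iron at the surface and importing ferrous iron, and they secrete coumarins that mobilise iron from poorly soluble forms. Transcription factors of the bHLH family switch these genes on when iron is short. Small IMA peptides promote the response, and the ubiquitin ligases BTS, BTSL1 and BTSL2 restrain it by marking some of the factors for breakdown. Many of the listed genes, among them IRT1, FRO2, FIT and BTS, had no probe set paired with them alone in the table used and were not analysed here.

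Between 12 h and 24 h few probe sets changed, and most of those rose. Of the 13647 probe sets tested, 28 were called at an adjusted p under 0.05, which is 0.205% of those tested. Among them 24 were higher at 24 h than at 12 h (0.176%) and 4 were lower (0.0293%). Of the higher probe sets, 11 were paired with 1 gene each. They included the coumarin gene S8H, the peptide gene IMA1, the transcription factor gene bHLH101, a pectin methylesterase gene and the glutathione transferase gene GSTU25. None of the 4 lower probe sets was paired with a single gene. In all 28 the 2 arrays of 24 h lay on one side of both arrays of 12 h, as they did for 34.6% of all tested probe sets. All changes were taken from log2(signal + 16), and adding 16 makes those of dim probe sets look smaller.

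**Figure D1:**
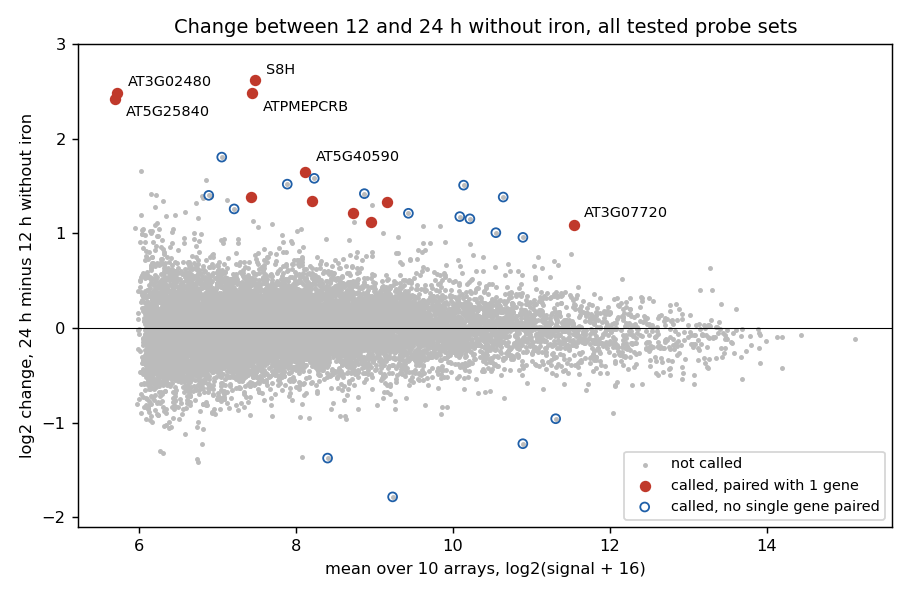
Each point is 1 of the 13647 tested probe sets, placed by its mean over the 10 arrays of standard medium and 3 to 24 h (x axis, log2(signal + 16)) and by its change, 24 h minus 12 h without iron (y axis, log2). Filled red points are the 11 called probe sets paired with 1 gene and open blue points the 17 other called probe sets; 24 of the 28 lie above 0.

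The test used limma on the 10 arrays of standard medium and 3 to 24 h, in which the other groups served only to estimate the spread, with Benjamini-Hochberg adjustment over all probe sets tested. In the same limma fit 780 probe sets (5.72%) had an unadjusted p under 0.05, 405 higher (2.97%) and 375 lower (2.75%). The count rested on the individual arrays: leaving out the first 24 h replicate gave 3 calls and leaving out the second 24 h replicate gave 0, while the fit lacking 12 h replicate 1 gave 15 and that lacking 12 h replicate 2 gave 3. It was 4 with no filter on low signal and 8 when the prior variance was not allowed to follow the mean. With all 14 arrays in the fit it was 51 (0.374%), 44 higher (0.322%) and 7 lower (0.0513%), and held all 28. The difference between the means of the 2 times had a median size of 0.17 on the log2 scale, and single arrays differed by a median of 0.20 within 24 h and 0.27 within 12 h. A mean of 2 arrays varies less than a single array, so these values are not on the same footing. At the 99th percentile these values were 0.88, 0.99 and 1.25.

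**Figure D2:**
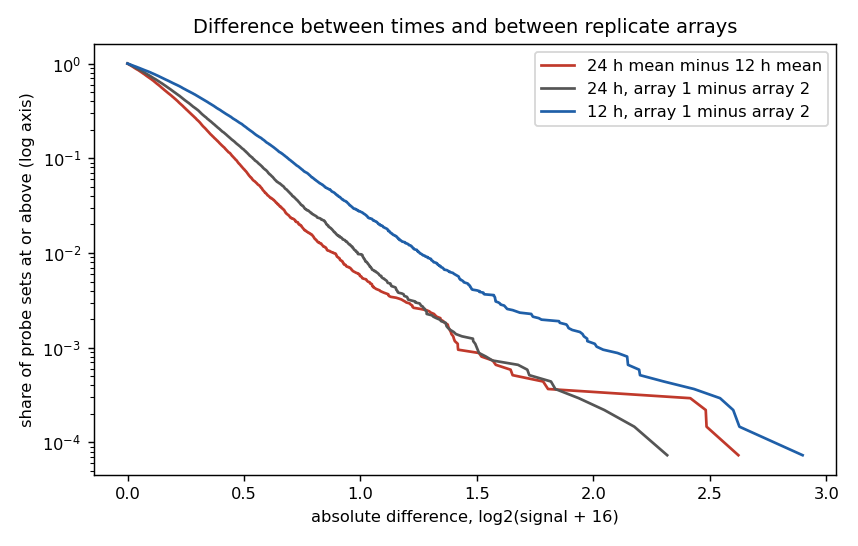
The curves give the share of tested probe sets (y axis, log scale) whose absolute difference on the log2(signal + 16) scale is at or above the value on the x axis. Red is the difference between the means of 24 h and 12 h, grey the difference between the 2 arrays of 24 h and blue that between the 2 arrays of 12 h. Means of 2 arrays vary less than single arrays, so the red curve is not on the same footing as the others; replicate arrays differed more at 12 h than at 24 h, with medians of 0.27 and 0.20.

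The geometric mean of the 18 spike-in probe sets was 2172 and 2684 at 24 h, against 2475 and 2867 at 12 h, while it was 378 to 440 on the arrays of 48 and 72 h, whose levels are therefore given apart below. The 25S ribosomal RNA signal was 966 and 758 at 24 h, against 1287 and 422 at 12 h, so of these 2 groups the 12 h arrays lay further apart. The ratio of 3′ to 5′ signal of actin was 1.99 and 2.02 at 24 h, against 1.73 and 2.59 at 12 h. Across probe sets the 2 arrays of 24 h correlated at 0.976 and those of 12 h at 0.959, the lowest value of the 7 groups. The part of these measures in the results was not tested.

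S8H (AT3G12900), which encodes the hydroxylase that turns scopoletin into the iron-mobilising coumarin fraxetin, had the largest log2 change of the 11 genes with a pseudocount of 16. With a pseudocount of 1 that of AT3G02480 was larger, at 3.10 against 2.70 for S8H, and neither was called. Its signal was 1577 and 1613 in roots of 24 h, against 323 and 186 in roots of 12 h. The 12 h arrays were the more variable pair, yet the groups lay far apart. The log2 change was 2.62 ± 0.39 (SE), with an adjusted p of 0.00750 in limma. On standard medium the signal was 33.0 and 56.5, at 3 h 9.35 and 63.5, and at 6 h 115 and 190. The arrays of 48 h gave 5361 and 5608.

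The other 2 called members of the iron uptake and coumarin list were AT3G07720, a kelch repeat protein gene, and AT3G61930, a gene of unknown role here. AT3G07720 had 7306 and 7228 at 24 h, against 3539 and 3264 at 12 h, a change of 1.09 ± 0.19 (adjusted p = 0.0169 in limma). Its replicate arrays were close to each other at both times. AT3G61930 had 1349 and 1840 at 24 h, against 785 and 652 at 12 h, a change of 1.12 ± 0.20 (adjusted p = 0.0222 in limma).

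Of the 23 genes of this list, 8 had a probe set paired with them alone, and all 8 passed the filter on low signal. Each of the 8 had both 24 h arrays above both 12 h arrays. Over all tested probe sets the share with that order was 17%. The median change of the list was 1.03, against −0.01 over all tested probe sets. The list was chosen with earlier results of these data known, so these contrasts are not independent of the values. The 5 members that were not called had changes of 1.36 for MTP8, which moves metals into the vacuole, 0.96 for BGLU42, a beta-glucosidase linked to coumarin release, 0.78 for F6'H1, which makes the precursor of scopoletin, 0.59 for AT5G38820, an amino acid transporter family gene, and 0.35 for COSY, a coumarin synthase gene. BGLU42 had 1253 and 1938 at 24 h, against 843 and 743 at 12 h. For MTP8 the signals were 294 and 508 at 24 h, against 178 and 112 at 12 h. In both genes the gap between the 24 h arrays was large, and their adjusted p was 0.105 and 0.205 in limma. With all 14 arrays in the fit both were called, at 0.0239 and 0.0493, so that 5 of the 8 were. Over all tested probe sets 0.322% were called higher in that fit and 0.176% in the fit of 10 arrays.

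**Figure D3:**
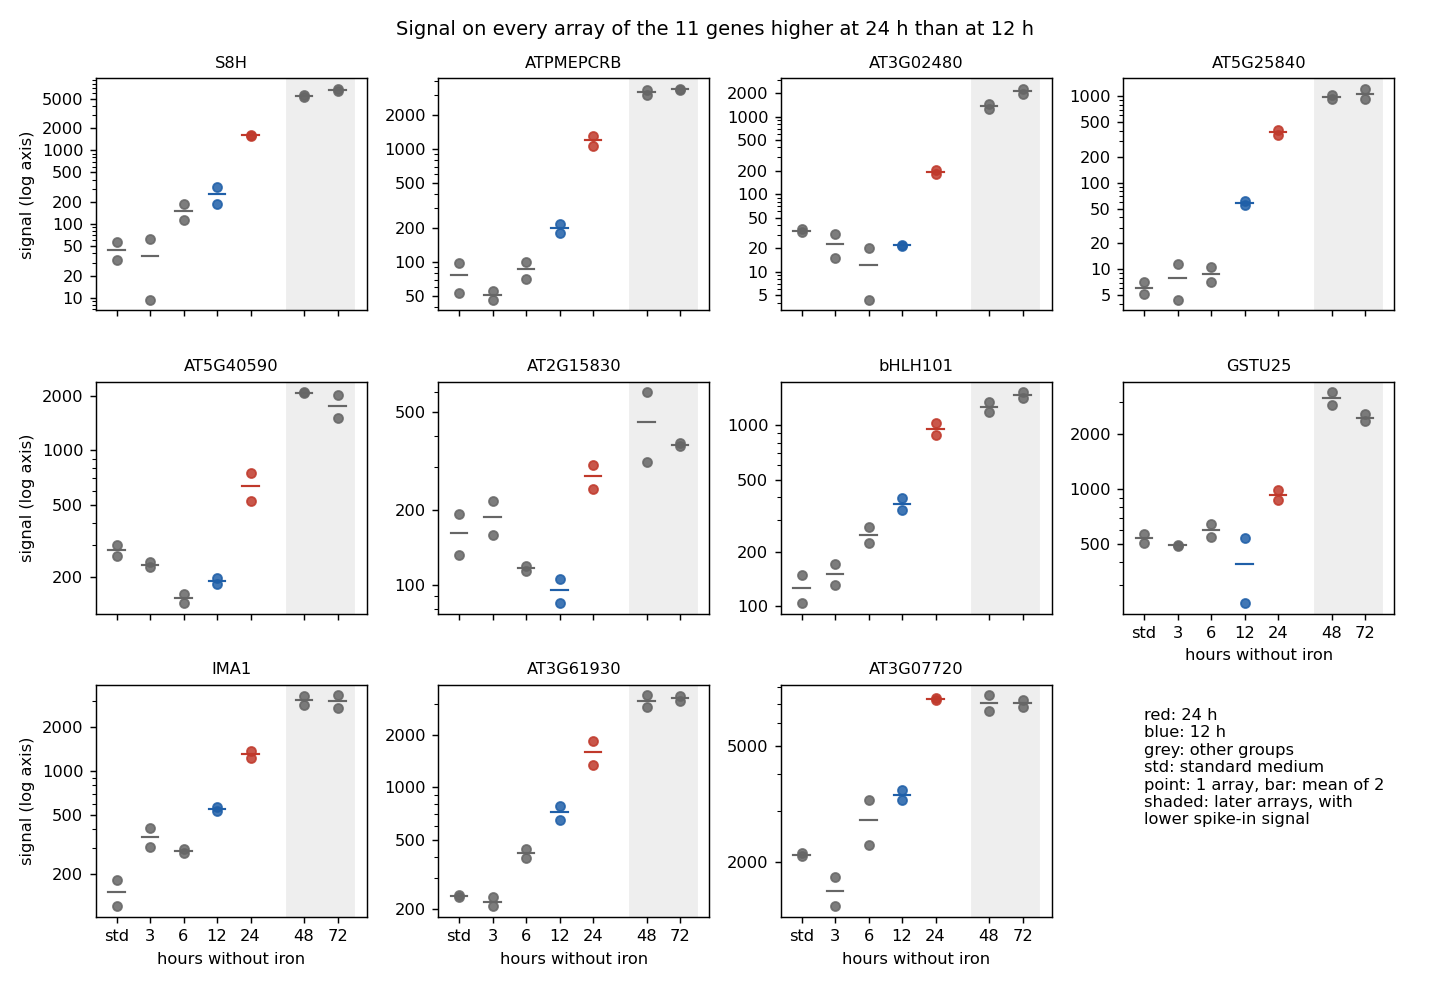
Signal (y axis, log scale) of the 11 genes called higher at 24 h than at 12 h, on each of the 14 arrays, by group (x axis: standard medium, then hours without iron). Points are arrays and bars the means of 2; the shaded 48 and 72 h arrays had lower spike-in signal. In every panel both red points (24 h) lie above both blue points (12 h), and S8H runs from 186 to 323 at 12 h and from 1577 to 1613 at 24 h.

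Among the regulators, the gene of the bHLH factor bHLH101 (AT5G04150), one of the bHLH factors of subgroup Ib that act with FIT, had 1029 and 885 at 24 h, against 395 and 340 at 12 h. The change was 1.34 ± 0.23 (adjusted p = 0.0154 in limma). IMA1 (AT1G47400), whose product is a small peptide activator of iron acquisition, had 1232 and 1374 at 24 h, against 573 and 530 at 12 h, a change of 1.22 ± 0.22 (adjusted p = 0.0214 in limma). Both genes showed close replicates at both times. At 3 h and 6 h IMA1 stood at 410 and 302 and at 295 and 278.

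These were the 2 called probe sets of 11 tested on the iron regulator list, which stood for 10 of its 29 genes. The median change over the 11 was 0.39, and 7 of them had both 24 h arrays above both 12 h arrays. Over all tested probe sets 0.176% were called higher and 17% had that order. This list was chosen with earlier results of these data known, so its counts are not independent of the values. The bHLH gene PYE was at 0.81, BTSL2 at 0.73, and the 2 probe sets of BTSL1 at 0.75 and 0.35. The stronger BTSL1 probe set had 2314 and 2359 at 24 h, against 1497 and 1277 at 12 h (adjusted p = 0.124 in limma, and 0.0272 with all 14 arrays). The other bHLH members had smaller values: bHLH115 was at 0.39, ILR3 at 0.31, bHLH104 at 0.19, bHLH121 at 0.08 and bHLH34 at −0.11. All 5 are related factors of subgroup IVb and IVc that act upstream in the response.

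ATPMEPCRB (AT4G02330), which encodes a pectin methylesterase, an enzyme that alters cell wall pectin, had the lowest adjusted p. Its signal was 1076 and 1315 at 24 h, against 217 and 183 at 12 h. The change was 2.49 ± 0.27 with an adjusted p of 0.000313 in limma. Standard medium gave 99.4 and 53.7, 3 h gave 56.2 and 46.5, and 6 h gave 71.2 and 101. It kept its call under 16 of 17 alternative settings and lost it without replicate 2 of 24 h (adjusted p = 0.0651 in limma). Of the other 10 genes called, AT3G02480 lost its call without either 12 h array and fell under the filter without either 24 h array. S8H lost it without either 24 h array or without 12 h replicate 2, AT5G40590 without replicate 2 of either time, and GSTU25 without either 24 h array or without 12 h replicate 1. The other 6 lost it without any 1 of the 4 arrays.

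AT3G02480, a late embryogenesis abundant protein family gene of the osmotic stress and abscisic acid list, had 185 and 207 at 24 h, against 22.1 and 21.6 at 12 h. The change was 2.48 ± 0.43 (adjusted p = 0.0169 in limma). AT5G25840, for which no role is given here, had 352 and 412 at 24 h, against 54.7 and 62.2 at 12 h, a change of 2.42 ± 0.40 (adjusted p = 0.0154 in limma). On standard medium and at 3 and 6 h AT5G25840 never exceeded 11.4. Both genes were dim on standard medium and at 3 and 6 h, and AT3G02480 also at 12 h. In the fit of 10 arrays they passed the filter on low signal, a mean of 53.5, only through the 24 h arrays. On the arrays of 48 and 72 h they were bright, at 922 to 1215 for AT5G25840 and 1262 to 2268 for AT3G02480. Neither was called with no filter, nor were S8H, bHLH101, IMA1, AT3G61930, AT3G07720, AT2G15830 and GSTU25. When the prior variance was not allowed to follow the mean, AT3G02480 and AT5G25840 kept their calls. That fit used the same filter, so it does not bear on how they entered the test. With a pseudocount of 1 neither was called (adjusted p = 0.229 and 0.559 in limma). S8H, bHLH101, IMA1, AT3G61930, AT3G07720, AT2G15830 and GSTU25 lost theirs when the prior variance did not follow the mean.

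AT5G40590, whose product belongs to a cysteine- and histidine-rich domain family, had 523 and 754 at 24 h, against 198 and 183 at 12 h. The change was 1.64 ± 0.22 (adjusted p = 0.00336 in limma). AT2G15830 had 244 and 306 at 24 h, against 106 and 84.5 at 12 h, a change of 1.39 ± 0.25 (adjusted p = 0.0222 in limma). These 2 genes stood at 302 and 263 and at 193 and 132 on standard medium. Their 12 h arrays thus lay below both standard arrays, and their 24 h arrays above them.

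GSTU25 (AT1G17180), a tau class glutathione S-transferase that detoxifies reactive compounds, had 871 and 989 at 24 h, against 239 and 539 at 12 h. The change was 1.33 ± 0.26 (adjusted p = 0.0392 in limma). GSTU25 lost its call in 8 of 17 alternative settings. The adjusted p in limma was 0.0513 without the standard arrays, 0.121 with only the 4 arrays compared and 0.0597 with a pseudocount of 1. The lower 12 h array was the lowest of the 14 arrays for this gene, and the other 12 h array stood within the range of standard medium and 3 h, at 493 to 568, so the change without replicate 1 of 12 h was 0.77. GSTU25 was the 1 called gene of the 4 tested on the list of mitochondrial dysfunction stress genes, a set induced when respiration is impaired. All 4 had positive changes, with a median of 1.37, and 3 of them had both 24 h arrays above both 12 h arrays. Over all tested probe sets 17% had that order and 0.176% were called higher. The list was chosen with earlier results of these data known, so its counts are not independent of the values. AT2G41730 stood at 336 and 444 at 24 h, against 94.1 and 151 at 12 h, a change of 1.57 (adjusted p = 0.144 in limma, and 0.0239 with all 14 arrays). AT12CYS-2 (AT5G09570) was at 1.41 and the alternative NADH dehydrogenase gene NDB2 at 0.15. UPOX (AT2G21640), a marker of mitochondrial oxidative stress, fell under the filter on 10 arrays with 130 and 127 at 24 h, against 42.1 and 5.54 at 12 h. It was tested and called only with all 14 arrays. The same held for NDB4 (AT2G20800), another alternative NADH dehydrogenase gene, and the log2 change was 2.03 for both. NDB4 was likewise under the filter on 10 arrays and entered only once the arrays of 48 and 72 h were added. UPOX entered that test through its high signal in the later groups, 1025 and 1258 at 48 h and 1003 and 1277 at 72 h. Its lower 12 h array, at 5.54, lay below the pseudocount, so the size of its change is uncertain.

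The fit of all 14 arrays called 23 more, and 9 of these had 1 paired gene. Beside BGLU42, MTP8, BTSL1, AT2G41730, UPOX and NDB4 these were AT5G51440, a small heat shock protein gene, AT4G19370 and AT3G20510. AT5G51440 had 156 and 217 at 24 h, against 61.9 and 67.1 at 12 h, a change of 1.32. AT4G19370 had 422 and 494 at 24 h, against 202 and 218 at 12 h, a change of 1.07. AT3G20510 was the 1 lower gene among the 9, with 544 and 489 at 24 h, against 862 and 1011 at 12 h, a change of −0.84. The adjusted p of these 3 in the fit of 10 arrays was 0.0944, 0.124 and 0.0839 in limma. The replicate arrays of 48 and 72 h correlated at 0.986 and 0.984, above the 0.959 to 0.976 of the earlier groups, and they enter the estimate of the spread in that fit.

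The 17 called probe sets with no single gene comprised 13 that were higher and 4 that were lower. The largest rise was in a probe set with 238 and 308 at 24 h, against 76.5 and 56.8 at 12 h, and the next in one with 1149 and 1091 at 24 h, against 371 and 357 at 12 h. The largest fall was in a probe set with 223 and 93.1 at 24 h, against 394 and 740 at 12 h, and the next in one with 309 and 214 at 24 h, against 568 and 846 at 12 h. The log2 changes of these 4 were 1.80, 1.58, −1.78 and −1.37. None has a gene in the table used, and they were picked by size after their values were seen. In each of the 2 falls 1 array of each pair was clearly lower than its partner.

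**Figure D4:**
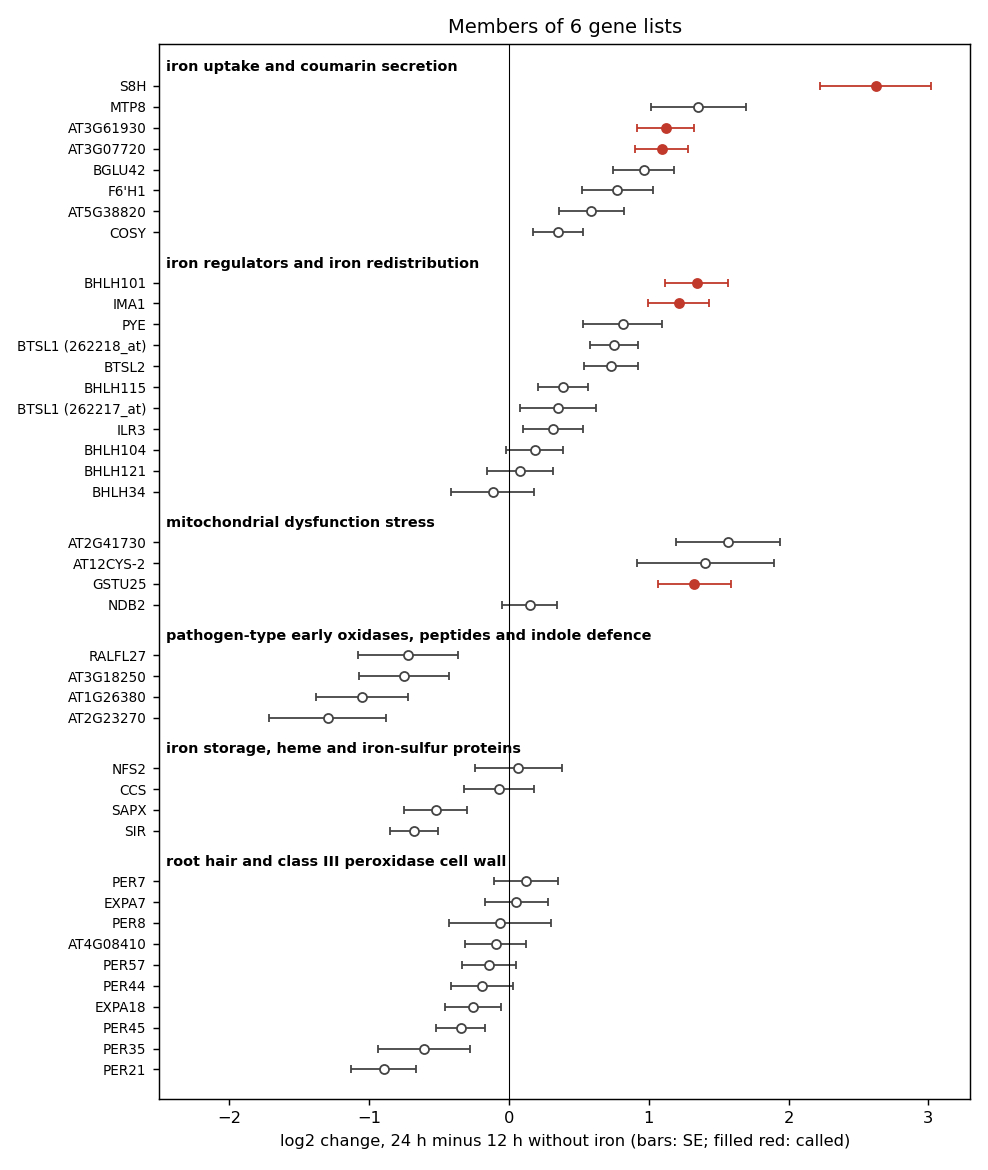
Log2 change, 24 h minus 12 h without iron (x axis), with its SE, of every tested probe set of 6 gene lists (rows); filled red points are called. All 8 probe sets of the iron uptake and coumarin list lie above 0, from 0.35 to 2.62, and all 4 of the pathogen-type list lie below 0, from −1.30 to −0.72. The lists were chosen with earlier results of these data known.

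The pathogen-type list, made of early oxidase and small peptide genes and of indole and other defence genes, had negative changes without a call. None of its indole defence genes was tested. Its 4 tested members of 19 genes had both 24 h arrays below both 12 h arrays, an order found in 17.6% of all tested probe sets. Their median change was −0.90. The list was chosen with earlier results of these data known, so this order is not independent of the values. AT2G23270 had 79.1 and 49.1 at 24 h, against 150 and 209 at 12 h, a change of −1.30 ± 0.42 (adjusted p = 0.563 in limma). AT1G26380, a gene of the berberine bridge enzyme-like oxidases, had 167 and 103 at 24 h, against 252 and 332 at 12 h, a change of −1.05 ± 0.33 (adjusted p = 0.513 in limma). RALFL27 was at −0.72 and AT3G18250 at −0.75. The related oxidase genes AT1G26390, AT1G26410 and AT1G26420 fell under the filter and also had both 24 h arrays below both 12 h arrays, for example 35.4 and 31.7 at 24 h, against 60.8 and 58.6 at 12 h for AT1G26410. The fourth member under the filter, AT4G37290, overlapped, with 46.6 and 26.2 at 24 h, against 40.5 and 108 at 12 h.

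The list of iron storage, heme and iron-sulfur proteins had 0 called members and a median of −0.30. SIR, the sulfite reductase gene whose enzyme carries siroheme and an iron-sulfur cluster, had 786 and 771 at 24 h, against 1219 and 1289 at 12 h, a change of −0.68 ± 0.17 (adjusted p = 0.234 in limma). SAPX, an organellar ascorbate peroxidase gene, had 553 and 547 at 24 h, against 648 and 978 at 12 h, a change of −0.52 ± 0.23 (adjusted p = 0.832 in limma). The copper chaperone gene CCS and the cysteine desulfurase gene NFS2, the other tested members of the 31 genes of that list, were at −0.07 and 0.07. Among the 10 tested root hair and class III peroxidase wall genes of 30, none was called and the median change was −0.17. PER21 had the lowest value, −0.89, with 3057 and 2428 at 24 h, against 4390 and 5877 at 12 h (adjusted p = 0.244 in limma). The root hair expansin genes EXPA7 and EXPA18 were at 0.05 and −0.26 and had overlapping groups.

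The remaining lists had 0 called members apart from AT3G02480. Of the osmotic stress and abscisic acid list 5 genes of 25 were tested, with a median of 0.04; COR47 and XERO2, dehydrin genes, were at −0.37 and −0.26, OSM34 at 0.04 and the ubiquitin ligase gene PUB19 at 0.45. The sugar supply and carbon starvation list had 5 tested members between −0.69, for the sugar exporter gene SWEET11, and 0.06. The phenylpropanoid list had 3, with the lignin gene HCT at 0.27, CCR2 at −0.11 and F6'H2 at −0.50. The 3 tested hypoxia genes lay between 0.04 and 0.66 and overlapped between the times. GI and COR28, the tested clock genes, were at −0.27 and −0.35 (adjusted p = 0.971 and 0.992 in limma). Both had the 24 h arrays below both 12 h arrays, as had 17.6% of all tested probe sets. The 2 tested genes of the touch and wounding list, ZAT10 and WRKY53, were at −0.32 and −0.15, the ethylene regulator gene EIN3 at 0.06, and FDH and ARD4 of the methionine cycle list at −0.07 and −0.16. The zinc transporter gene ZIP9 was at 0.23. The reference genes SAND, GAPC2 and TIP41L were at 0.26, −0.07 and −0.38.

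Markers of tissue and cell type had no called change. EXPA7 and EXPA18, which mark root hair cells, were both measured, between 536 and 817 on the 4 arrays. Of the 16 green tissue markers 2 were tested: RCA, with 715 and 355 at 24 h, against 395 and 727 at 12 h, and LHCB4.1, with 405 and 286 at 24 h, against 309 and 339 at 12 h. The groups overlapped for both. The dividing cell marker MCM7 was at −0.22 and the endodermis marker SGN3, also of the suberin and Casparian strip list, at 0.02. No xylem, phloem, root cap or stem cell marker was paired with a probe set here. A lower share of a cell type in the root and less RNA per cell cannot be told apart in whole roots.

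By gene family, chosen from symbols in the reference gene table, the 30 tested UDP-glycosyltransferase genes, which attach sugars to small molecules, had a median change of −0.28. None was called, 14 had both 24 h arrays below both 12 h arrays, an order found in 17.6% of all tested probe sets, and 3 had both above, against 17% of all. The highest were UGT76B1, with 1253 and 773 at 24 h, against 435 and 479 at 12 h, and UGT72E1, which acts on lignin precursors, with 1999 and 2544 at 24 h, against 1311 and 1128 at 12 h. Their changes were 1.08 and 0.88. The lowest was GT72B1 at −0.81. Other families were kept where symbols or synonyms matched 5 or more tested genes. Their medians were −0.12 for 9 tau class glutathione transferase genes, −0.03 for 13 cytochrome P450 genes and 0.02 for 6 WRKY genes. They were −0.06 for 10 expansin genes and −0.01 for 8 xyloglucan endotransglucosylase genes. Class III peroxidase and bHLH genes reached no such count by this matching, although several of them were tested in the lists above. GSTU25 was the 1 called gene among the families given here, and bHLH101 was in none of them. The families were chosen with earlier results of these data known, so the UDP-glycosyltransferase counts are not independent of the values.

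The step between 3 h and 6 h shares no array with that between 12 h and 24 h. It had 12 called probe sets (0.0879% of those tested), all lower in the fit of 10 arrays, and 0 of them were among the 28. That count was 1 with the first 6 h array left out, 2 with the first 3 h array left out and 5 with the second. The difference of the 2 steps was tested in the same limma fit and was called for 14 (0.103%), 10 positive (0.0733%) and 4 negative (0.0293%). Among these, 6 had 1 paired gene. Leaving out an array gave 5 (replicate 1) and 1 (replicate 2) for 24 h, 9 and 5 for 12 h, 3 and 5 for 6 h, and 4 and 6 for 3 h. The steps differ in length, 3 h against 12 h, and this test was added with the values known. The 7 of the 14 also called between 12 h and 24 h included AT5G40590 and AT2G15830. AT5G40590 moved by 1.64 from 12 h to 24 h and by −0.56 from 3 h to 6 h, a difference of 2.21 ± 0.31 (adjusted p = 0.00460 in limma). For AT2G15830 the 2 values were 1.39 and −0.61, with a difference of 2.00 ± 0.36 (adjusted p = 0.0325 in limma).

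Each of the 4 tested members of the pathogen-type list, chosen with earlier results of these data known, had steps of opposite sign. RALFL27 was at −0.72 from 12 h to 24 h and 0.18 from 3 h to 6 h. AT3G18250 was at −0.75 and 0.57, and the difference was called for neither of these. For the other 2 genes it was called. AT2G23270 was at −1.30 from 12 h to 24 h and at 2.15 from 3 h to 6 h, a difference of −3.45 ± 0.60 (adjusted p = 0.0240 in limma). AT1G26380 was at −1.05 and 1.49, a difference of −2.54 ± 0.46 (adjusted p = 0.0336 in limma). Neither step alone was called for either gene. The small heat shock protein gene AT4G21870 was at 0.59 from 12 h to 24 h and fell by 2.64 from 3 h to 6 h. Its signal was 77.5 and 51.2 at 24 h, against 41.9 and 32.0 at 12 h, while it was 597 and 595 at 3 h and 61.7 and 108 at 6 h. The difference of 3.23 ± 0.39 (adjusted p = 0.00145 in limma) therefore rested mainly on the earlier step. AT1G51850, a receptor kinase family gene, was at 0.93 and −1.26, a difference of 2.18 ± 0.37 (adjusted p = 0.0208 in limma). Among the called iron genes the 2 steps were 2.62 and 1.87 for S8H, 1.34 and 0.67 for bHLH101, 1.12 and 0.87 for AT3G61930, 1.09 and 0.79 for AT3G07720 and 1.22 and −0.28 for IMA1, and the difference was called for none of them.

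**Figure D5:**
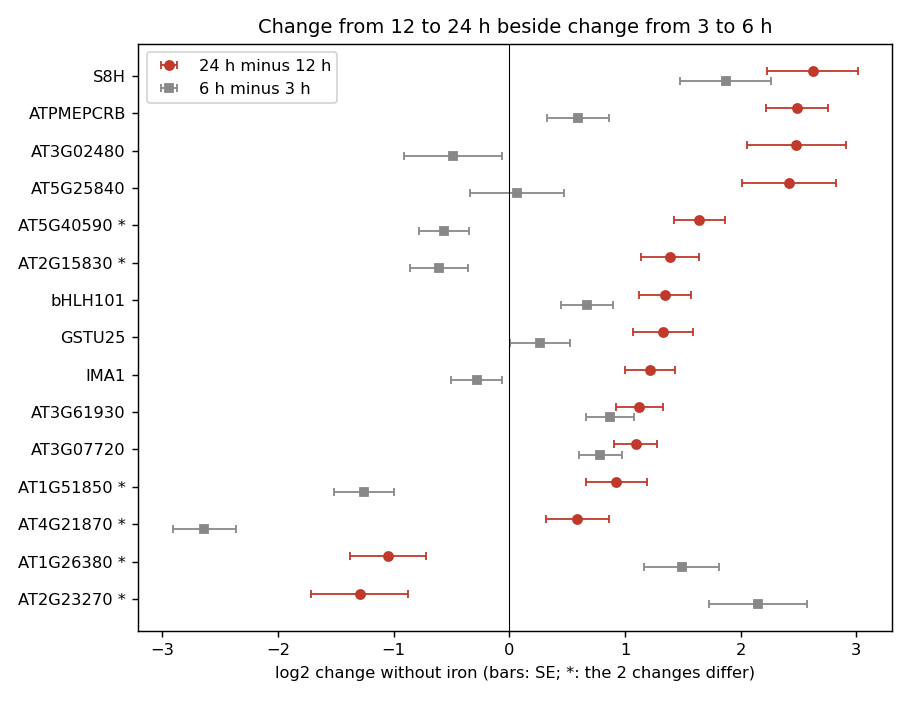
Log2 change (x axis) with its SE of the 11 genes called between 12 h and 24 h and of 4 further genes whose 2 steps differ (rows). Red circles are 24 h minus 12 h and grey squares 6 h minus 3 h; a star marks the 6 genes whose difference of steps was called. AT2G23270 and AT1G26380 lie below 0 for the later step, at −1.30 and −1.05, and above 0 for the earlier one.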

How the data were processed

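Whole root RNA was put through one-cycle Affymetrix amplification, per the labels' protocols. The authors deposited linear signal intensities per probe set. The submitters' processing notes name MAS5; its version is not given in the sources used here. A mean trimmed by 2% at each end came to about 250.02 on every array, and this scaling was kept. All 14 columns of values were used as samples, with 0 left over. Precision is limited by having 2 arrays in a group. The labels call them biological replicates and say no more of their source, so the p-values measure the spread between these samples.

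Of 22810 probe sets, 13513 were paired with 1 gene, 503 with several and 8794 with none in the platform table. The RefSeq gene table gave locus names for 13484 of those with 1 gene. The 64 control probe sets and the 40% of the others with the lowest mean over the 10 arrays were left out. Values were taken as log2(signal + 16) and tested with limma 3.58.1 (R 4.3.3), fitting a mean for each group with 5 residual degrees of freedom, a prior variance that follows the mean, and Benjamini-Hochberg adjustment. The fit leaves out the arrays of 48 and 72 h, whose spike-in signal and replicate spread differ. The fit was also run on simulated data drawn from its own means and variances, so that run is no check on the calls made here. Genes are named by a rule of up to 15 rises and 15 falls among called probe sets with 1 gene and groups that do not overlap, plus list members. The members, lists and families were chosen with earlier results of these data known. Replicate numbers are not stated to mark shared batches.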

Additional observations from a re-analysis of the deposited data

Results flagged for a closer look

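For 6 genes the change from 12 h to 24 h differed from that from 3 h to 6 h in a test of the difference itself. The differences, on the log2 scale, were 3.23 for AT4G21870, 2.21 for AT5G40590, 2.18 for AT1G51850, 2.00 for AT2G15830, −2.54 for AT1G26380 and −3.45 for AT2G23270. AT4G21870 kept this call under all 21 alternatives run and AT5G40590 under 20 of 21, losing it without replicate 2 of 24 h. AT1G51850 kept it under 12 of 21, AT2G15830 under 11 of 21, AT2G23270 under 10 of 20 and AT1G26380 under 9 of 20, each losing it without several single arrays.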

How the results depend on the processing

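No log2 change of the 11 named genes between 12 h and 24 h, and none of the 6 named differences of steps, changed sign under any alternative run. Of 183 recomputed values for the 11 genes, 126 kept their call and 57 lost it; of 124 for the differences of steps, 83 kept it and 41 lost it. The 28 calls between 12 h and 24 h became 51 (44 higher, 7 lower) with all 14 arrays, 4 (4 and 0) with no filter and 8 (8 and 0) with no trend. Higher calls were 15 with a pseudocount of 1, and lower calls were 2 in a fit of the 4 arrays compared. Leaving out 1 array of 12 h or 24 h gave 0 to 15 calls, 0 to 12 of them higher and 0 to 3 lower. The lone array left is then assumed to vary like the other groups. Quantile normalization and median centring each gave 28 calls. For 6 h against 3 h the 12 calls became 31 with all 14 arrays, 3 with no filter, 1 with no trend, 25 with the replicate block and 1 to 10 without single arrays. The 14 differences of steps, a test chosen after seeing the data, became 32 with all 14 arrays, 9 with a pseudocount of 1, 4 with no filter, 6 with no trend and 1 to 9 without single arrays. The fit with no filter adjusts over 22746 probe sets; the cause of these shifts was not tested. With the replicate number as a block, 29 probe sets were called between 12 h and 24 h, 28 of them shared. The numbers were not treated as pairing the samples, since deviations of same-numbered arrays correlated at −0.07 to 0.15 over 10 pairs of groups, only 3 of them over 0.1. The 25S ribosomal RNA signal was nevertheless higher on replicate 1 than on replicate 2 in all 7 groups, and its part in the block results was not tested. Signal near background limits AT3G02480 and AT5G25840 most.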
